A study of Mus musculus with 2 samples.

Results

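A set of 10 genes that mark subtypes of cortical interneurons were read in open chromatin maps of the mouse left cerebral cortex. The genes are Pvalb, Sst, Vip, Npy, Cck, Tac1, Crh, Lamp5, Calb2 and Reln, chosen by name, and all 10 were found among the 21938 protein-coding genes of GENCODE release M21. The maps came from DNase-seq, in which DNase I cuts DNA in nuclei where it is not covered by nucleosomes and the cut ends are sequenced. There were 2 samples in 1 group, labelled biological replicates 1 and 2, from male B6CASTF1/J mice aged 2 months with no treatment named. The labels put both under 1 donor record of the strain, a first-generation cross between C57BL/6J and CAST/EiJ, so each locus carries a C57BL/6J and a CAST/EiJ copy, while all sequence printed here is the C57BL/6J reference. The values are peak heights, a signal in the authors' own scale, and no read depth is given. With 1 group there was no contrast to test, so the values are descriptions, and the spread is that between these 2 samples, which the labels give different male numbers.

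Cortical interneurons release GABA and are grouped by birthplace and by the proteins they make. Cells from the medial ganglionic eminence mostly make parvalbumin (Pvalb) or somatostatin (Sst), while cells from the caudal eminence make vasoactive intestinal peptide (Vip), Lamp5 or other markers. Many of the markers are neuropeptides packed with GABA, and several, above all Cck, Tac1, Crh and Reln, are also made by other neurons. Each subtype is a small part of the tissue, and in bulk tissue fewer cells with an open site and less cutting per cell cannot be told apart.

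A promoter was called open where a peak lay within 500 bp of at least 1 of the gene's annotated transcription start sites (TSSs). Of the 10 markers, 7 had a promoter peak in both replicates: Pvalb, Npy, Cck, Tac1, Lamp5, Calb2 and Reln. Over all protein-coding genes this share was 56.2%. Sst, Vip and Crh had no promoter peak in either list of either replicate. The count was 7 in replicate 1 alone, where 61.6% of coding genes had a promoter peak, and 7 in replicate 2 alone, against 57.1%. In the longer peak lists the count was again 7, against 61.0%. At the gene start itself, meaning the most upstream TSS, only Npy, Cck, Tac1 and Calb2 had a peak in both replicates, which is 4 of 10 against 50.4% of coding genes. The peaks of Pvalb and Lamp5 lay at internal start sites, and those of Reln lay at different start sites in the 2 replicates.

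The 7 open promoters were low. Their median height was 0.682 in replicate 1 and 0.554 in replicate 2, against 3.73 and 2.11 for all coding promoters open in both. Every member was below both medians. Calb2 stood highest in replicate 1, at percentile 13.1 of those promoters, and Cck stood highest in replicate 2, at percentile 14.5. Npy was the lowest in replicate 1, at percentile 1.02, and Reln the lowest in replicate 2, at percentile 1.18.

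**Figure D1:**
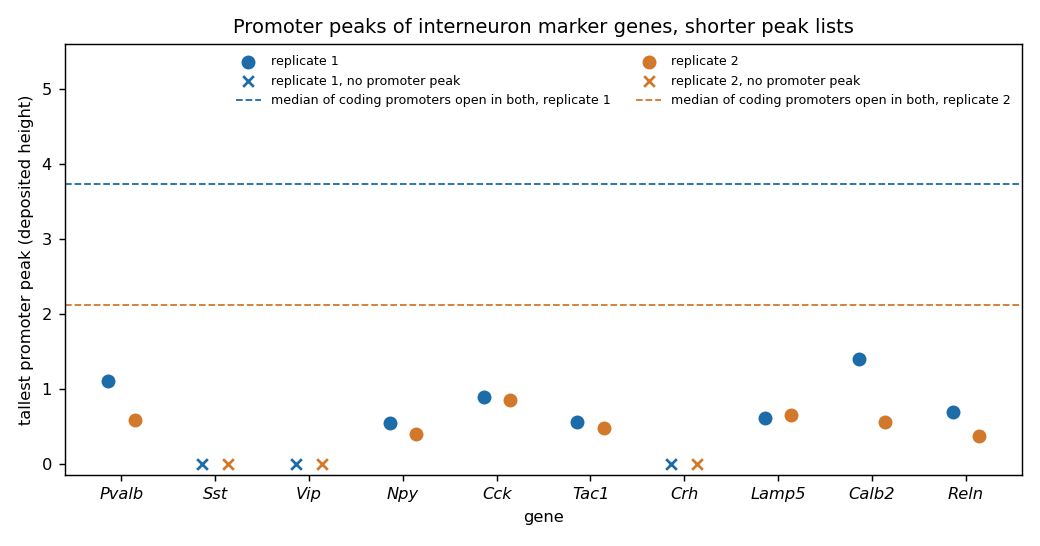
Height of the tallest promoter peak of each marker gene (vertical axis, the authors' scale, starting just below 0) in replicate 1 (blue) and replicate 2 (orange), with crosses where the shorter list has none and dashed lines at the medians of 3.73 and 2.11 over all coding promoters open in both. Sst, Vip and Crh have crosses in both replicates, and the 7 others lie between 0.371 and 1.40, under both lines.

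Among the neuropeptide genes, Sst and Crh had no peak at their start sites although both carry a cyclic AMP response element (CRE), the site at which CREB, a factor activated by neuronal signalling, binds. Sst encodes somatostatin, which acts on the dendrites of pyramidal cells through inhibitory receptors, and lies at chr16:23889573-23890958 on the minus strand (mm10). Crh encodes corticotropin-releasing hormone, the peptide that starts the hormonal stress response and is also made by some cortical interneurons, and lies at chr3:19693401-19695396 on the minus strand. The 2 elements are shown because both lie beside gene starts without a peak. Sequences are on the strand of the gene, 5′ to 3′, with the letters TGACGTCA in capitals, at chr16:23890874-23890903 and chr3:19695540-19695569.
Sst: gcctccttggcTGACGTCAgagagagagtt
Crh: ttcgggctcgtTGACGTCAccaaggaggcg
The midpoint of the Sst element was 70 bp downstream of the GENCODE start, and the RefSeq start of the gene, 114 bp downstream of the GENCODE start, puts the element upstream. The Crh element was at -158 bp. Searched on both strands from 250 bp before to 50 bp after a start, TGACGTCA was present in 2.43% of coding gene starts. Among the members this search found it at 1 gene start, that of Crh. The Sst element lay outside the GENCODE window and inside the RefSeq window of the gene. Of the 32817 RefSeq promoter windows, 1.79% held the letters. A match of letters is not evidence that a protein was bound. In the track of false discovery rates (FDR), which lists bases with an FDR under 0.05, the Sst start window held 0 bases in both replicates. The Crh window held 13 in replicate 1, with a lowest FDR of 0.0325, and 0 in replicate 2. Vip, whose product marks interneurons that mainly inhibit other interneurons, lies at chr10:5639218-5647617 on the plus strand and also held 0 such bases in both. Of the 9437 coding gene starts with no peak in the shorter list of either replicate, 11.5% held a listed base in replicate 1 and 5.64% in replicate 2. Starts with a peak in a longer list are among these, while Sst, Vip and Crh had none in either list.

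Npy and Tac1 were open at the gene start in both replicates at low heights. Npy encodes neuropeptide Y, which marks neurogliaform cells and some Sst cells, and lies at chr6:49822710-49829507 on the plus strand. Its promoter peak was 0.544 in replicate 1 and 0.398 in replicate 2. Tac1 encodes the precursor of substance P, found in part of the Pvalb cells, and lies at chr6:7554879-7565834 on the plus strand. Its peak was 0.548 and 0.473. The 2 genes were thus close to each other in both libraries, with both values higher in replicate 1. The Npy start window held 497 and 289 bases with an FDR under 0.05, and that of Tac1 held 642 and 406. Npy had 1 footprint shared by the replicates in its promoter window. A footprint is a short stretch inside an open region that was cut less than its surroundings. Tac1 had 4 footprints in each replicate at its gene start, of which 0 overlapped between them.

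Cck encodes cholecystokinin, made by a class of basket cells and, at high level, by excitatory neurons of the cortex. It lies at chr9:121489824-121495694 on the minus strand. Its promoter peak was 0.885 in replicate 1 and 0.844 in replicate 2, the closest pair among the members, with a log2 ratio of replicate 2 over replicate 1 of -0.07. Upstream of it lay 2 distal regions that were higher in replicate 2. The first, at -9866 bp, had 0.928 and 1.28, and the second, at -11276 bp, had 0.691 and 1.37. Both regions and the promoter hold the E-box CAGATG, a letter pattern bound by the NEUROD family of neuronal factors, on the strand shown or its complement (CATCTG), and they are printed for that shared element. The sequences are chr9:121505441-121505680, chr9:121506841-121507100 and the 158 bp before the gene start within the promoter peak, chr9:121495695-121495852, all on the minus strand, with the E-box in capitals.
Cck region at -9866 bp: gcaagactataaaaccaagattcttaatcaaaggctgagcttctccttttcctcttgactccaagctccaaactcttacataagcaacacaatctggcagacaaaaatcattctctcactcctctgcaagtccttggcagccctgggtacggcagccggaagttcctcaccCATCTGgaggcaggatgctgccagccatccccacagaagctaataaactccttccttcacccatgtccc
Cck region at -11276 bp: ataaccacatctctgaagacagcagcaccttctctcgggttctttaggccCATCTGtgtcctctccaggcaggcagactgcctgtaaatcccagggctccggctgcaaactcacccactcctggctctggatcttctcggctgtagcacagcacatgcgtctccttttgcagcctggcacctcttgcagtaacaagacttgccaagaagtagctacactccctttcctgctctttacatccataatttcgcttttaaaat
Cck promoter: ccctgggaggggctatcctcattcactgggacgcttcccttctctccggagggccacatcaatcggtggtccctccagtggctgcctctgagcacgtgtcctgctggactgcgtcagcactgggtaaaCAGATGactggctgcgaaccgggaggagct
The element was common: 25.7% of all 28099 shared distal regions and 15.2% of coding gene starts held CAGATG, and among the members it was in 5 of 19 shared distal regions and 2 of 10 gene starts, those of Cck and Tac1. The other 2 distal regions of Cck lay downstream of the gene. The one at 16044 bp had 1.54 in replicate 1 and 0.925 in replicate 2, and the one at 18204 bp had 1.45 and 0.858, so these 2 were lower in replicate 2 while the upstream 2 were higher. The upstream pair was thus the lowest of the 4 in replicate 1 and the highest in replicate 2. The region at 18204 bp also held CAGATG.

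The 2 genes for calcium-binding proteins had the tallest promoter peaks in replicate 1. Pvalb encodes parvalbumin, the marker of fast-spiking basket and chandelier cells, and lies at chr15:78191114-78206400 on the minus strand. Its gene start had no peak and 0 listed bases in both replicates. The peak lay at the other annotated start, 2163 bp downstream, which both GENCODE and RefSeq record, and was 1.10 in replicate 1 and 0.581 in replicate 2. That window held 318 and 269 bases with an FDR under 0.05, with lowest values of 1.1e-11 and 1.7e-05, and 2 shared footprints. Calb2 encodes calretinin, found in many Vip cells, and lies at chr8:110137502-110168210 on the minus strand. Its peak at the gene start was 1.40 and 0.554, which was the largest gap between the replicates among the 7 members, with a log2 ratio of -1.34. It also had 2 shared footprints. Calb2 was the member nearest to the coding median in replicate 1, and in replicate 2 it was lower than Cck, Lamp5 and Pvalb.

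Lamp5 and Reln, which both mark neurogliaform and other superficial interneurons, had peaks that depended on the start site. Lamp5 encodes a membrane protein of the LAMP family in presynaptic vesicles of GABA neurons and lies at chr2:136052239-136069917 on the plus strand. Its gene start had no peak in the shorter lists and 0.371 in the longer list of replicate 2. Its tallest promoter peaks lay at start sites 5688 and 6013 bp downstream, with 0.604 in replicate 1 and 0.641 in replicate 2. At a further start site, 7192 bp downstream, replicate 1 had a peak of 0.587 and replicate 2 had one of 0.324 in its longer list only. In the shorter lists the tallest peaks of the 2 replicates were not the same interval. The region shared by both, chr2:136058121-136058329, had 0.604 and 0.473, and the taller peak of replicate 2, chr2:136057697-136058100, had no partner in the shorter list of replicate 1 but one of 0.604 in its longer list. Reln encodes reelin, a secreted protein that positions neurons during development, and spans chr5:21884454-22344702 on the minus strand. At its gene start replicate 1 had a peak of 0.682 and 898 listed bases, while replicate 2 had no peak in either list and 0 listed bases. The only promoter peak of Reln in replicate 2, at 0.371, lay at the start of a retained-intron transcript 450806 bp downstream. Counting only peaks at the same start site, 6 of 10 members were open in both, against 56.0% of coding genes.

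The 7 log2 ratios of promoter height, replicate 2 over replicate 1, ran from -1.34 for Calb2 over -0.92 for Pvalb, -0.88 for Reln, -0.45 for Npy, -0.21 for Tac1 and -0.07 for Cck to 0.09 for Lamp5. Their median was -0.45, and 6 of 7 were higher in replicate 1. Over all coding promoters open in both the median was -0.77, and 95.1% were higher in replicate 1. The lower values of most members in replicate 2 thus ran in the direction of the whole library. The Reln ratio compares different start sites, and that of Lamp5 compares different intervals of the shorter lists. Within the region that Lamp5 shared between replicates in those lists the ratio was -0.35.

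In 4 of 10 members (Pvalb, Npy, Lamp5 and Calb2) a footprint was shared by both replicates in a promoter window, against 54.8% of coding genes. Within the 7 members open in both, the count was 4, while 94.6% of the 12324 coding genes open in both had such a footprint. These counts are for the promoter window, not the peak. The Lamp5 promoter region shared in the shorter lists held 0 shared footprints, and the wider one of the longer lists held 1. Of the 1267 coding genes whose promoter peaks were no taller than the tallest member in each replicate, 66.6% had a shared footprint in a promoter window. These genes were capped at 1.40 in replicate 1 and 0.844 in replicate 2, and were not matched to the members in height. Whether low height accounts for the members' count was not tested. Cck and Tac1 had footprints in each replicate that did not overlap. At the Reln gene start there were 9 footprints in replicate 1 and 0 in replicate 2.

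The gene starts differed widely in CpG content, which tends to be higher at broadly active promoters than at tissue-specific ones. The ratio of observed to expected CpG in the 500 bp on both sides was 0.157 at Pvalb and Lamp5, 0.260 at Cck, 0.287 at Vip, 0.396 at Crh, 0.526 at Calb2, 0.577 at Sst, 0.607 at Tac1, 0.626 at Npy and 1.01 at Reln. The median was 0.461 for the members and 0.552 for all coding genes. Coding genes were put into 10 equal bins of this ratio, and some members stood apart from most genes of their bin. Reln, at percentile 98.6, is in the bin in which 91.9% of starts were open in both, and its start was open in replicate 1 alone. Sst shares its bin, in which 72.3% were open, with Npy and Tac1, and was the 1 of these 3 without a peak. Cck was open although only 5.93% of starts in its bin were. For Pvalb and Lamp5 the share was 2.78%, for Vip and Crh it was 19.2%, and for Calb2 it was 50.9%. The internal start of Pvalb that was open had a ratio of 0.516. A TATA box, the letters TATAAA within 50 bp before the start on the sense strand, was present at Vip and Calb2 and in 3.25% of coding gene starts, of which 16.9% were open in both.

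**Figure D2:**
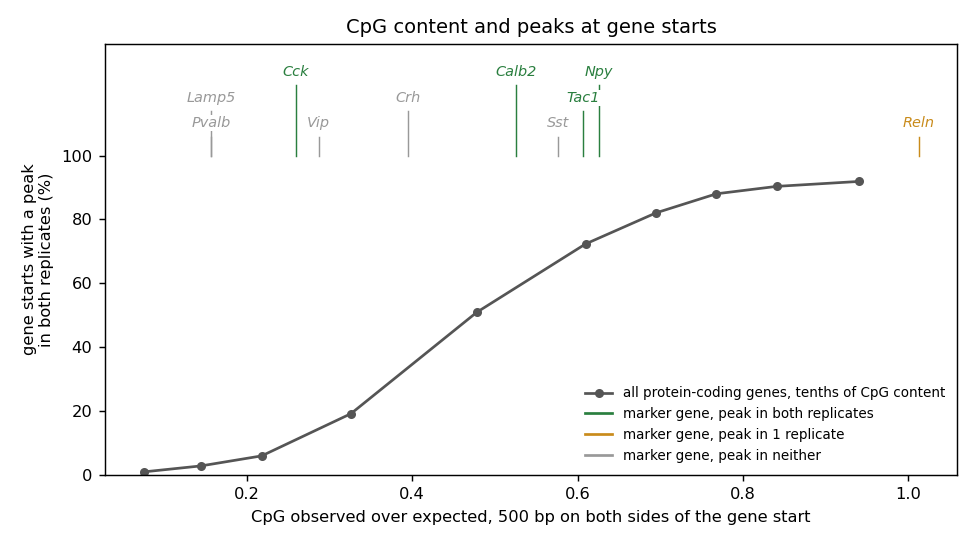
Percent of coding gene starts with a peak in both replicates (vertical axis) against CpG observed over expected (horizontal axis), as points for 10 equal bins of all protein-coding genes, with the members marked above at their own CpG value and coloured by whether both, 1 or neither replicate had a peak at the gene start. The share rises from 0.912% in the lowest bin to 91.9% in the highest, and Reln stands at 1.01 with a peak in 1 replicate while Cck stands at 0.260 with peaks in both.

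The locus of each gene was taken as its body with 50 kb on both sides. The 10 loci held 28 regions with overlapping peaks in both replicates: 6 at own promoters, 3 at promoters of neighbouring genes and 19 distal ones outside the promoter window of every annotated gene. The 3 at neighbours included the tallest 2 of the 28. In the Pvalb locus, the region chr15:78174101-78174500 at the start of Ift27, a gene of intraflagellar transport that shares it with Gm49694, had 8.21 in replicate 1 and 7.21 in replicate 2. In the Calb2 locus, chr8:110217701-110217960 at the start of Cmtr2, an enzyme that methylates capped RNA, had 11.3 and 7.47. Both were above every peak at a member's own start in both replicates. The third, chr15:78254833-78255020 at Ncf4, a subunit of the phagocyte oxidase, had 0.989 and 0.648, within the range of the members' own peaks. In addition, 13 peaks of the loci were in the shorter list of replicate 1 alone, at heights of 0.471 to 0.743, and 27 in that of replicate 2 alone, at 0.297 to 0.952. Of these, 5 and 8 overlapped a peak in the longer list of the other replicate. The whole shorter lists held 63928 and 76440 peaks and gave 44745 shared regions, so unshared peaks were common throughout the maps. Their share over the whole lists is not given, and these counts are not read as a trait of the loci.

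**Figure D3:**
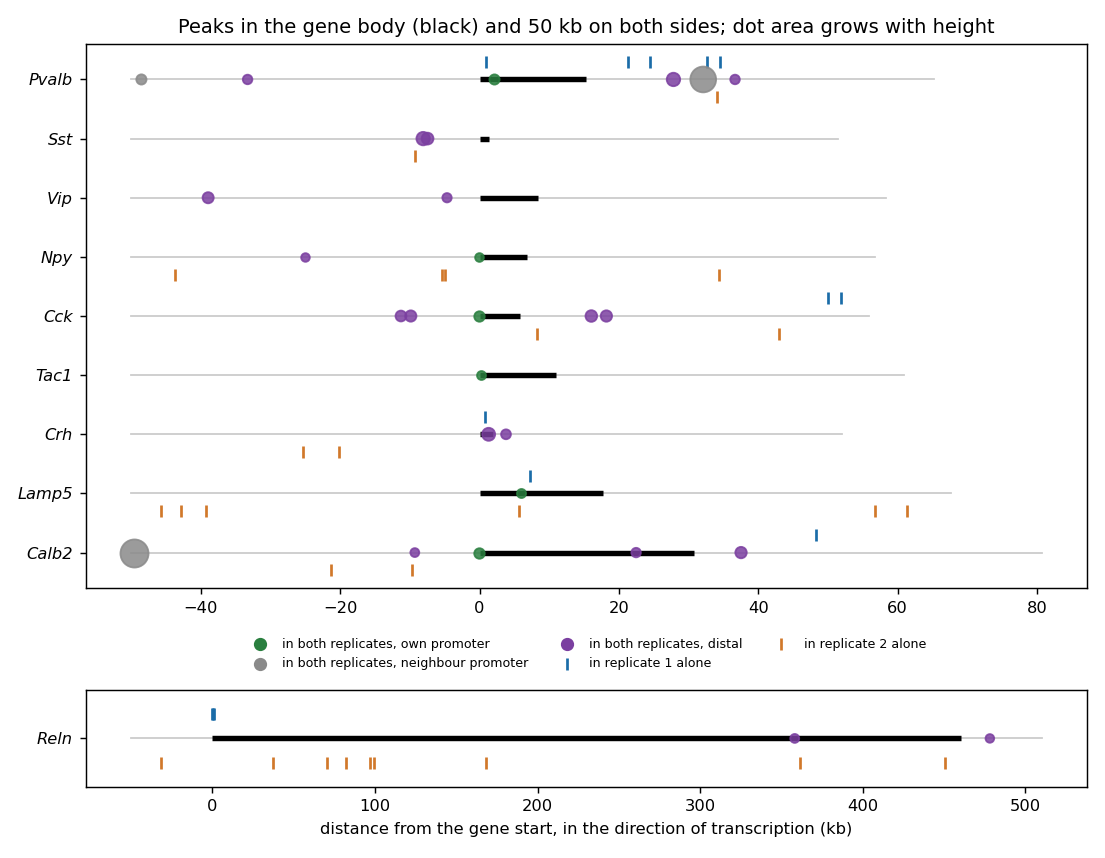
Peaks of the 10 loci by distance from the gene start in the direction of transcription (horizontal axis, kb), 1 line per gene with the gene body in black, and Reln on its own scale. Dots are regions in both replicates with area growing with height, coloured as own promoter, neighbour's promoter or distal, and ticks above and below the line are peaks of replicate 1 or 2 alone; the largest dots are the promoters of Ift27 and Cmtr2, and Tac1 has its own promoter region and nothing else.

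The distal regions were spread unevenly over the members. Cck had 4, Pvalb and Calb2 had 3 each, Sst, Vip, Crh and Reln had 2 each, Npy had 1, and Tac1 and Lamp5 had none. Per 100 kb of locus the median over members was 1.90, against 1.09 over all coding genes with quartiles of 0 and 2.44. Cck was the densest with 3.78, at percentile 90.8, and Reln, the longest gene, had 0.357. Loci without a distal region were 2 of 10 here and 27.2% of coding genes. Of the 19 regions, 13 were intergenic, 3 lay in sequence of the member itself, 13 had the member's TSS as the nearest coding one, and 7 were within 10 kb of the gene start.

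The members without an open promoter had some of the tallest distal regions. Sst had a pair upstream, at -8092 bp (chr16:23898961-23899140) with 2.31 in replicate 1 and 1.32 in replicate 2, and at -7462 bp (chr16:23898301-23898540) with 1.58 and 0.999. Both were taller than the 7 members' promoter medians in each replicate. Crh had a region at 1306 bp, inside its own coding sequence (chr3:19693961-19694220), with 2.83 and 0.905, the tallest distal region of all loci in replicate 1 and the one with the largest drop, at a log2 ratio of -1.65. A window of 2000 bp around the start would count it as promoter. The other Crh region, at 3798 bp in exon sequence of the neighbour Trim55, a muscle protein, had 0.743 and 0.689. Vip had one at -4667 bp (chr10:5634462-5634640) with 0.652 and 0.547, and a taller one at -38948 bp in an intron of the neighbour Myct1 (chr10:5600161-5600380) with 1.38 and 0.790, whose nearest coding TSS, 6495 bp away, is that of Myct1.

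For the other members the tallest distal regions were as follows. Pvalb had 2.61 in replicate 1 and 1.16 in replicate 2 at 27830 bp, beyond the end of the gene (chr15:78178461-78178680), 4463 bp from the TSS of Ift27. Next by geometric mean came a region at 36669 bp in an intron of Ift27, with 0.522 and 0.797, nearly level with one at -33288 bp, with 0.686 and 0.601. Calb2 had 1.77 and 0.716 at 37530 bp (chr8:110130581-110130780) and 0.846 and 0.473 at 22470 bp in its coding sequence. The only distal region of Npy, at -24985 bp, had 0.406 and 0.473. Reln had 0.574 and 0.446 in an intron at 358199 bp and 0.419 and 0.466 at 478231 bp, past the end of the gene and 867 bp from the TSS of Slc26a5, a motor protein of cochlear hair cells. The Npy and Reln regions were the lowest of the tallest regions per member.

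The 19 distal regions were of ordinary height. Their median was 0.846 in replicate 1 and 0.790 in replicate 2, against 0.924 and 0.824 over all 28099 shared distal regions, and 10 of 19 had a geometric mean above the overall median. They ranged from 0.406 to 2.83 in replicate 1 and from 0.392 to 1.37 in replicate 2. In replicate 2, 14 were lower and 5 higher, and 63.9% of all shared distal regions were lower. The median log2 ratio was -0.66 against -0.24. A footprint shared by both replicates was found in 15 of 19, which is 78.9% with an exact Clopper-Pearson 95% interval of 54.4% to 93.9%, against 80.9% of all shared distal regions. The interval covers counting error over regions only.

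Of the 19 distal regions, 6 held the consensus of CTCF, the factor that blocks enhancers and anchors chromatin loops, searched on both strands. They were 1 region each of Sst, Vip, Cck, Crh, Calb2 and Reln. The share was 31.6% with an exact interval of 12.6% to 56.6%, against 12.2% of all shared distal regions. The 6 matches are printed with the bases around them, since each lay under a footprint shared by both replicates. They are on the strand of the gene, with the 12 bases of the match in capitals, at chr16:23898430-23898459, chr10:5600266-5600295, chr9:121477445-121477474, chr3:19694055-19694084, chr8:110130668-110130697 and chr5:21986494-21986523.
Sst region at -7462 bp: tcggtggagCCAGCAGAGGGCagaggagct
Vip region at -38948 bp: aacaatcgcCCACTAGATGGCgacctctac
Cck region at 18204 bp: tctctgagcGCCCTCTACTGGccgtgaaaa
Crh region at 1306 bp: cctcggtggCCACCAGGGGGCgctggagag
Calb2 region at 37530 bp: cggagcagcGCCACCTGCTGGtagagacct
Reln region at 358199 bp: gcttaccctGCCACCTACTGGtagaaccga
In 5 of them the footprint covered 12 of 12 bases of the match, and in Crh it covered 4 of 12. Over all shared distal regions with a match, 91.8% had it under a shared footprint. In Sst, Vip and Crh the match reads from left to right as printed, and in Cck, Calb2 and Reln it lies on the opposite strand. All 6 regions with a match were lower in replicate 2, with a median log2 ratio of -0.78, and of the 13 without it 8 were lower, with a median of -0.19. The same difference ran through the whole library: 93.4% of the 3419 shared distal regions with a match were lower in replicate 2, at a median of -0.69, against 59.9% of those without, at -0.16. Median heights over all distal regions were 1.34 with and 0.876 without a match in replicate 1, and 0.824 in both classes in replicate 2.

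**Figure D4:**
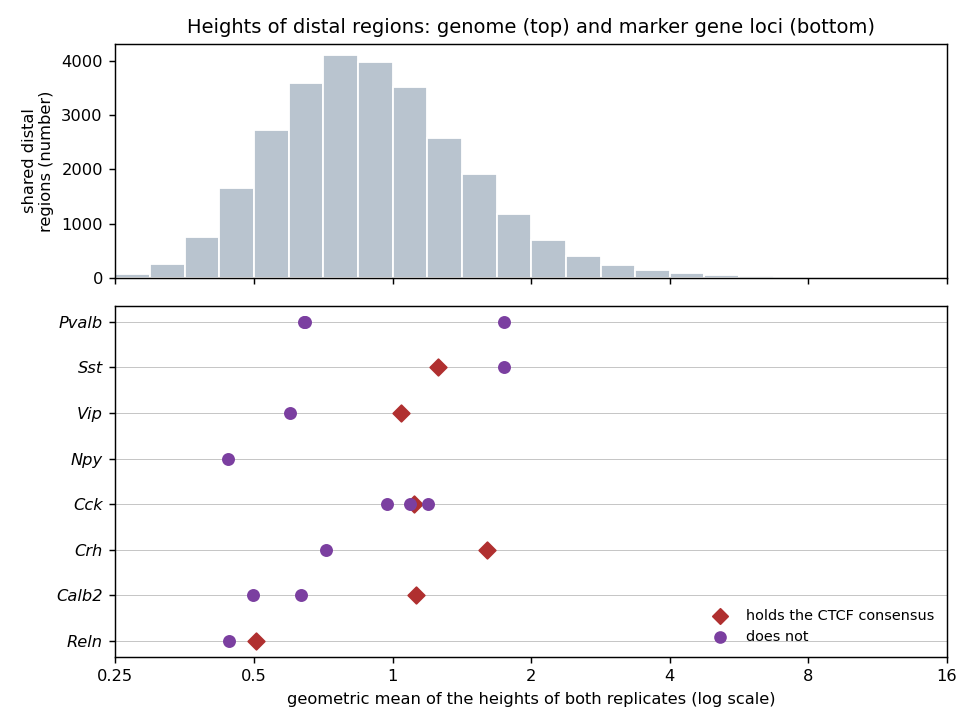
Geometric mean of the heights of both replicates (horizontal axis, log scale) for all 28099 shared distal regions (upper panel, number per bin) and for the 19 in the marker loci (lower panel, 1 line per gene), with red diamonds for the 6 that hold the CTCF consensus. The 19 regions lie within the body of the upper distribution, with Pvalb, Sst and Crh farthest to the right and Npy and Reln farthest to the left.

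The other letters searched on both strands in the gene starts gave few matches. A GC box, GGGCGG, was present at Npy, Calb2 and Reln and in 43.0% of coding gene starts. AP-1 letters, TGANTCA, were present at Tac1 and in 6.91%, the homeodomain letters TAATTA at Sst and in 5.30%, and the MEF2 consensus at the closed Pvalb gene start and in 2.85%. The REST consensus was in none of the 10 starts and in 0.0912% of all. Of the 19 distal regions 2 held AP-1 letters, 1 each of Pvalb and Npy, against 16.5% of all shared distal regions. The GC box was in 3, of Vip, Crh and Reln, against 13.0%. TAATTA, MEF2, TGACGTCA and REST were in 0 of 19, against 4.68%, 3.67%, 0.698% and 0.0498%. RefSeq promoter windows on GRCm38.p6 were matched for 8 of the 10 members, all except Crh and Calb2. The assignments to gene starts above are for the GENCODE starts, and some changed in the RefSeq windows. The homeodomain letters were absent from the RefSeq window of Sst. That of Tac1, with a start 182 bp downstream, held no AP-1 letters but held the homeodomain letters, the GC box and the E-box. The GC box at Npy and Reln and the MEF2 consensus at Pvalb were in their RefSeq windows too.

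Other genes of inhibitory neurons were open at their promoter in both replicates in 20 of 40, against 56.2% of all coding genes. A further 11 had a peak in replicate 1 alone, 1 in replicate 2 alone and 8 in neither. Of all 21938 coding genes, 1179 had one in replicate 1 alone, 205 in replicate 2 alone and 8230 in neither. In the longer lists 32 of 40 were open in both, against 61.0% of coding genes. The medians of the 20 were 1.42 in replicate 1 and 0.949 in replicate 2, above those of the 7 open members and below those of all coding genes. Among the tallest were Id2, an inhibitor of basic helix-loop-helix factors, with 6.70 and 4.88, Kcnc1, the Kv3.1 potassium channel of fast-spiking cells, with 2.03 and 1.42, and Dlx6, a homeobox factor of developing forebrain interneurons, with 1.70 and 1.65. Chat, Dlx2, Lhx6 and Nkx2-1 had no promoter peak in the shorter list of either replicate. In the longer lists Dlx2 had 1.20 in replicate 1 and 0.689 in replicate 2, and Lhx6 had 0.367 in replicate 1 alone, while Chat and Nkx2-1 had none.

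The receptors for the members' peptides and the partners of reelin were open in both replicates in 9 of 21, against 56.2% of coding genes. A further 5 had a peak in replicate 1 alone, 1 in replicate 2 alone and 6 in neither. For all 21938 coding genes these counts were 1179, 205 and 8230. In the longer lists 15 of 21 were open in both, against 61.0%. The medians of the 9 were 1.73 and 1.02. The tallest were Vipr1, a receptor for Vip, with 3.19 and 1.499, the reelin receptor gene Lrp8 with 2.94 and 1.34, Dab1, the adaptor that carries the reelin signal, with 2.28 and 1.23, and Sstr2, a somatostatin receptor, with 2.56 and 0.966. Cckar, Crhbp, Crhr2 and Npy2r had no promoter peak in the shorter list of either replicate. In the longer lists Npy2r had 0.389 and 0.270, and Crhr2 had 0.319 in replicate 1 alone, while Cckar and Crhbp had none.

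The maps as a whole held 63928 peaks in replicate 1 and 76440 in replicate 2 in the shorter lists, with median heights of 0.915 and 0.689. Of the tissue markers, promoters were open in both replicates for 4 of 9 genes of cortical excitatory neurons, 4 of 5 of astrocytes and 3 of 5 of oligodendrocytes. The count was 1 of 5 for inhibitory neurons, 1 of 5 for microglia and 0 of 5 for endothelium, against 56.2% of coding genes. Replicate 1 alone had a peak at 5 excitatory, 3 inhibitory, 2 endothelial and 1 oligodendrocyte markers, against 1179 of 21938 coding genes. In the longer lists 7 of 9 excitatory, 5 of 5 astrocyte and 4 of 5 oligodendrocyte markers were open in both. There the count was 4 of 5 for inhibitory neurons, 1 of 5 for microglia and 1 of 5 for endothelium, against 61.0% of coding genes. None of 7 markers of other regions or tissues had a promoter peak in the shorter list of either replicate. Among the inhibitory markers, Gad1 had 0.984 and Gad2 1.02 in replicate 1, and in replicate 2 both appeared only in the longer list, at 0.452.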

How the data were processed

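DNase-seq of 2 cortex samples was used as the authors deposited it: for each replicate 2 peak lists, a footprint list and a track of false discovery rates, on mm10 per the labels. The peak height used from the deposited lists is a signal, on a scale that no label or header used here explains. Heights were whole multiples of about 0.00432 in replicate 1 and 0.00675 in replicate 2. The deposited FDR track gives false discovery rates (adjusted p-values) under 0.05 per stretch of bases, and the footprint lists hold 1 constant value, so footprints (280338 and 245020) were used as positions. Aligner and callers: not given in the sources used here. Depth is unknown.

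The labels do not tell the 2 lists apart, so the shorter list was used and the longer one was an alternative. Overlapping peaks of a list were joined, from 65017 to 63928 in replicate 1 and from 76962 to 76440 in replicate 2, keeping the highest height. Regions were shared where peaks overlapped by 1 bp or more, which gave 44745, and distal regions were those outside the 500 bp windows of all annotated TSSs. Genes came from GENCODE M21 and sequence from GRCm38.p6, whose chromosomes held the peaks on 21 of 21. All 10 members, their 2 tallest distal regions each, the neighbours with a region at their promoter, and from each other list the 4 genes with the tallest shared promoter peak and the first 4 in alphabetical order without one were named, except 1 gene that is not reported here. The members and lists were chosen with earlier results of these data known. The overlap code was tested on simulated intervals. Python 3.11.15, numpy 2.4.6, pandas 2.3.3, pysam 0.24.0, scipy 1.17.1 and matplotlib 3.10.9 were used. No test between groups was possible with 1 group.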

Additional observations from a re-analysis of the deposited data

How the results depend on the processing

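Of 60 recomputed counts, shares and densities, 40 stayed near the reported value and 20 moved. The 60 include the share of all coding genes open in both. Near was a wide class: it took in counts of 5 for 7, 32 for 22 and 6 for 4. A footprint share was near anywhere inside its interval of 54.4% to 93.9%, so 57.1% for 78.9% was near too. The promoter height ratios read the same peaks under the other lists and windows and at the gene start, so all 24 such values were identical and say nothing of stability. Within the promoter region shared by both replicates in the shorter lists, a setting chosen after seeing the data, 5 of 6 ratios were identical. That of Lamp5 reversed from 0.09 to -0.35. In the longer lists the Lamp5 region with the tallest peaks of both replicates was shared, and its ratio was 0.09. The count of 7 members with a shared promoter peak was 4 at gene starts only (50.4% of coding genes), 5 with a reciprocal overlap of 50%, without Lamp5 and Reln (51.7%), 8 with windows of 2000 bp, where Crh entered (59.8%), and 0 with the taller peaks only, those at or above the median height of each list (50.3%). It was 7 to 7 with 1 replicate left out. The 22 shared regions outside own promoters became 41 in the longer lists, 46 with flanks of 100 kb and 11 with the taller peaks, and were 32 to 47 with 1 replicate left out. The 3 at neighbours' promoters became 6 in the longer lists, 5 with windows of 2000 bp, 1 with flanks of 20 kb and 13 with flanks of 100 kb, and were 4 to 4 with 1 replicate left out. The median density of 1.90 per 100 kb became 0.816 with the taller peaks, 1.18 with flanks of 100 kb and 1.36 with windows of 2000 bp. It was 1.91 to 3.39 with 1 replicate left out. A density was counted as near within 1.05, the standard deviation of these last 2 values, so 1.18 and 1.36 were among the 40. The 4 members with a shared promoter footprint became 2 at gene starts only. They were 6 to 7 with 1 replicate left out, where a footprint in the remaining replicate was enough. The share of distal regions with a shared footprint, 78.9%, was 57.1% in the longer lists. It was 86.0% to 92.9% with 1 replicate left out, under the same looser rule. For region counts, densities and footprints, no value over all coding genes or all shared distal regions is given under these settings. The count at the same TSS, 6, was chosen after seeing the data. No paired analysis was possible because there was 1 group of 2 samples. Depth is unknown, so a missing low peak, as at Sst, Vip and Crh, cannot be set against a detection limit.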
